A study of Sus scrofa with 46 samples.

Results

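Complement genes were examined in the livers of 3-day-old piglets. Of 32 listed symbols for complement components, regulators and receptors, 30 had a row in the table of estimated read counts, and 1 of them (C4BPA) had a pair of rows, which gave 31 genes of 18440 in all. CR2 and ITGAX were not analysed here. The 31 genes were picked by symbol, from a list set with earlier results of these data known. They fall into 10 genes of the classical pathway, 5 of the alternative pathway with C3, 10 of the terminal pathway and 6 receptors and membrane regulators. All 31 passed the filter on low counts, which kept 13780 genes of the table.

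The study compared piglets with intrauterine growth restriction (IUGR) with normal-sized piglets, each with or without an energy supplement, to ask whether liver gene expression differed by size at birth and whether the supplement altered it. All piglets were crosses of Landrace and Yorkshire sows with Duroc boars, were raised by nurse sows, and were euthanized 72 hours after birth. IUGR was graded by eye from the shape of the head and face, and the supplement was Piggy Boost, a commercial oral paste with colostrum, fatty acids and vitamins. One liver library was sequenced from each of 46 piglets, of which 11 were normal-sized without the paste, 12 normal-sized with it, 10 IUGR without it and 13 IUGR with it. The paper took several piglets from each sow, of both sizes and with and without the paste, so the 46 livers include littermates. Litter, sex and sampling week are not in the labels, so littermates could not be matched. The tests treat piglets as independent. The labels name no batch.

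Complement is a set of plasma proteins that mark microbes and damaged cells for removal. Antibody-bound C1q starts the classical pathway through the proteases C1r and C1s, the alternative pathway amplifies the deposit of C3 with factors B and D, and both lead to C5 and to the pore built from C6, C7, C8 and C9. Hepatocytes make most of the plasma components, while C1q and properdin come mainly from macrophages and other myeloid cells, and receptors on leukocytes read the cleaved fragments. In bulk liver RNA, fewer cells of a type and less RNA per cell cannot be told apart.

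The total of counts per library was 15036591 to 19340218 (median 15902518.5). The libraries of pig 38 (IUGR untreated) and of pigs 39 and 46 (both IUGR treated) stood apart, with a median correlation to the other libraries of 0.765 to 0.843, against 0.953 to 0.966 for the other 43, and results that rest on them are given with and without them. Summed hepatocyte markers were abundant in all livers (117600 to 260300 CPM), and summed B cell markers were at 0.631 to 4.55 CPM. Levels in CPM, counts per scaled library total of 1e+06, were not divided by gene length, so levels are not compared between genes. It is in doubt whether each column of the count table carries the heading of its own pig, and the labels could not settle it. Groups are therefore named as labelled, and differences between groups are valid only under correct headings, whereas the comparisons across livers do not use them.

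Which complement genes varied together was measured across livers, without using the group labels. Over the 43 livers, the 3 chains of C1q moved nearly as 1 gene, and a second set of plasma components held C1R, C1S, C3, CFB, C5, CFI and SERPING1. C6, C2 and C4BPA ran together and were not separate from that set. With its genes, r was 0.51 to 0.647 for C6, 0.511 to 0.651 for C4BPA and 0.316 to 0.609 for C2. C8A and C8B were a pair of their own, and C8G, C7, CD59 and the other C4BPA row had no close partner among the complement genes. The sets were read from the r values, and no clustering was run. Of 465 pairs of complement genes, 49 (10.5%) had Pearson's r of log2 CPM at or above 0.6, and 22 (4.73%) had r at or above 0.7. Among all 94937310 pairs of the genes tested, 0.899% and 0.249% reached these values. These shares are descriptions, since genes measured in the same livers share cell composition and library scaling. Within the 4 labelled groups, r of C1QA with C1QB was 0.975 to 0.994, whereas r of C6 with C7 ran from -0.378 in treated normal-sized to 0.855 in untreated IUGR livers and r of C8A with C8B from 0.202 in treated to 0.89 in untreated IUGR livers. Both IUGR groups include livers that stood apart, and differences in r between groups were not tested.

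**Figure D1:**
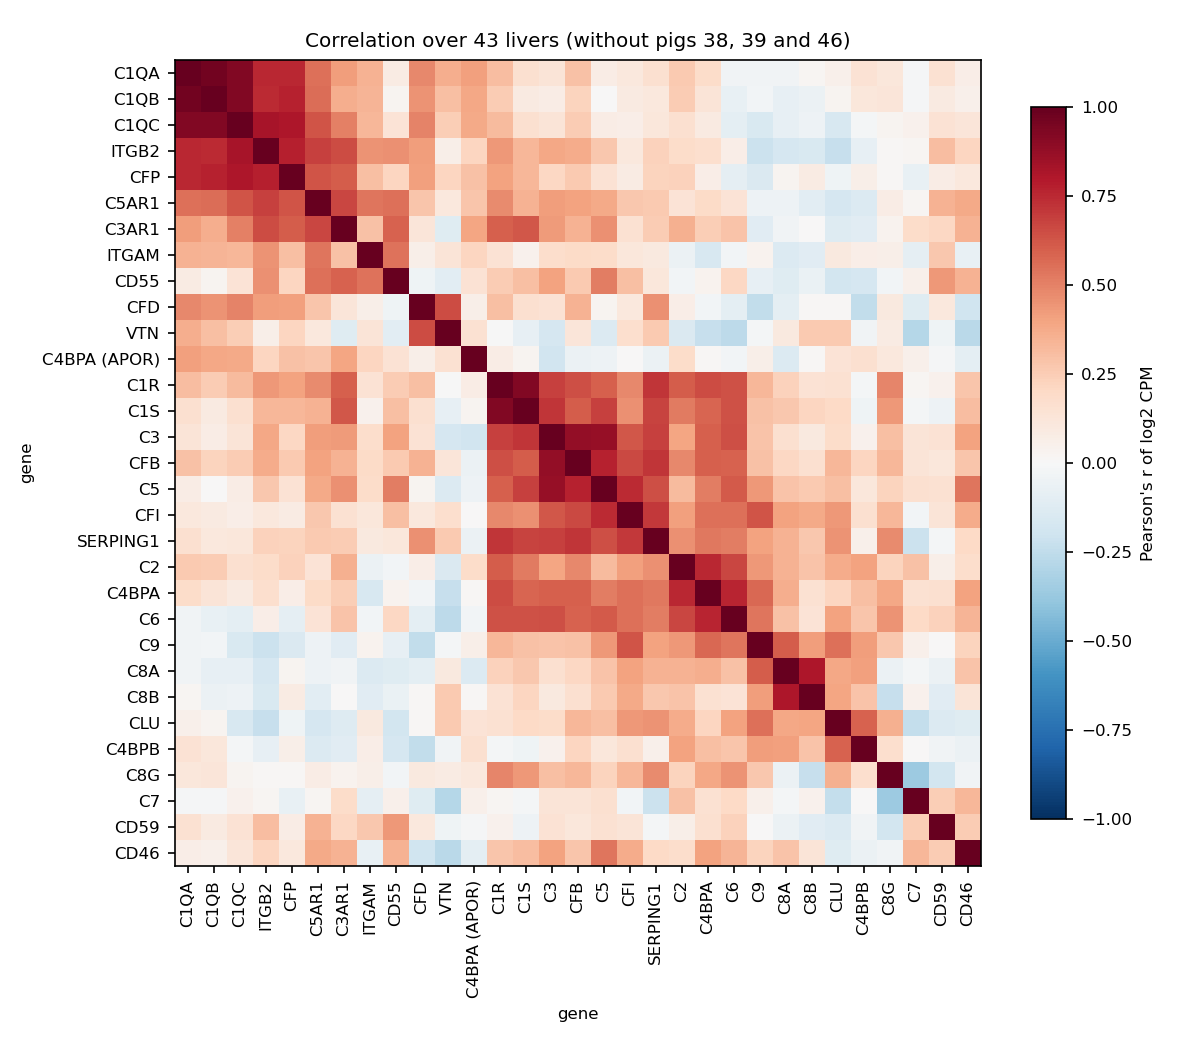
Pearson's r of log2 CPM for each pair of the 31 complement genes over 43 livers, without pigs 38, 39 and 46, with genes on both axes in an order set by hand to place correlated genes side by side. Red is positive and blue negative: the C1q chains with ITGB2 and CFP form 1 block, C1R to C6 another, and C8A with C8B a small one, and r runs from -0.367 to 0.962 outside the diagonal.

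The genes C1QA, C1QB and C1QC encode the chains of C1q, the part of the C1 complex that recognises its target. They lie within a short stretch of chromosome 6 of Sscrofa11.1 (C1QA from 80586259 to 80589213, C1QC from 80592591 to 80597464, C1QB from 80601680 to 80606076). C1QA was at 98.7 to 467 CPM (median 147), C1QB at 102 to 516 CPM (median 160) and C1QC at 138 to 513 CPM (median 192) over the 46 livers. Each of the 3 was highest in the livers of pigs 39 and 46, with pig 38 next, and these 3 lay above all of the other 43.

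Over those 43 livers, C1QA and C1QB had r = 0.962 and Spearman's rho = 0.921 (permutation p = 1e-05 for each, the smallest that 100000 permutations can give, adjusted p = 2e-05 and 2.29e-05 over 16 pairs chosen by subunit, position or cell type). Without the 2 livers farthest from the median of C1QA, r was 0.952, and over all 46 livers it was 0.984. C1QA with C1QC and C1QB with C1QC each had r = 0.929, with the same permutation p, and 0.971 and 0.967 over all 46. Of 13779 other genes, the 2 nearest to each C1q chain were the other chains, followed by CSF1R, the receptor for a macrophage growth factor, with r of 0.844 to 0.883. C1QB also followed CD163, a scavenger receptor of macrophages, over the 43 livers (r = 0.668, rho = 0.628, adjusted permutation p = 2e-05 and 4e-05). Over all 46 this r was 0.315.

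C1R and C1S encode the proteases of the same C1 complex, yet neither followed the C1q chains closely. The pair lies 15160 bases apart on chromosome 5. C1R was at 151 to 1070 CPM (median 473) and C1S at 166 to 1436 CPM (median 591), so both varied widely among livers. Between C1R and C1S, r was 0.929 and rho 0.896 over 43 livers (adjusted permutation p = 2e-05 and 2.29e-05), with r = 0.908 without the 2 farthest livers and r = 0.830 over all 46. Each was the other's nearest gene of 13779, and C4A, which encodes the C4 cleaved by C1s, was among the 3 nearest to both (r = 0.830 with C1R and 0.795 with C1S). In pigs 39 and 46, C1R was at 950 and 1070 CPM, near the top of its range, while C1S was at 524 and 465 CPM, below its median.

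SERPING1 encodes the C1 inhibitor, which shuts off C1r and C1s. It was at 1387 to 3484 CPM (median 1953), and its nearest complement gene was C1R (r = 0.715 over 43 livers, adjusted permutation p = 0.000113 over all 465 pairs, and r = 0.718 over all 46). All 3 livers that stood apart were above the other 43 for SERPING1, at 2748, 3484 and 2918 CPM against 1387 to 2730 CPM.

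C3, the component on which the pathways converge, was at 5607 to 27070 CPM (median 10450), and CFB, which encodes the protease part of the alternative convertase, at 1333 to 3664 CPM (median 1870). C3 and CFB had r = 0.878 and rho = 0.903 over 43 livers and r = 0.886 over all 46 (adjusted permutation p = 0.000113 and 8.77e-05 over 465 pairs), and each was the nearest gene to the other. C3 with C5, whose product is cleaved by the same convertase once a further C3b has joined it, had r = 0.869 over 43 livers, with r = 0.868 without the 2 farthest. Over all 46 livers r was 0.164, because C5 in pigs 38, 39 and 46 was at 281, 191 and 87.7 CPM, below the 505 to 1723 CPM of the other livers, while C3 was at 23230, 27070 and 9551 CPM. The relation of C3 to C5 therefore depends on whether these 3 livers are included.

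**Figure D2:**
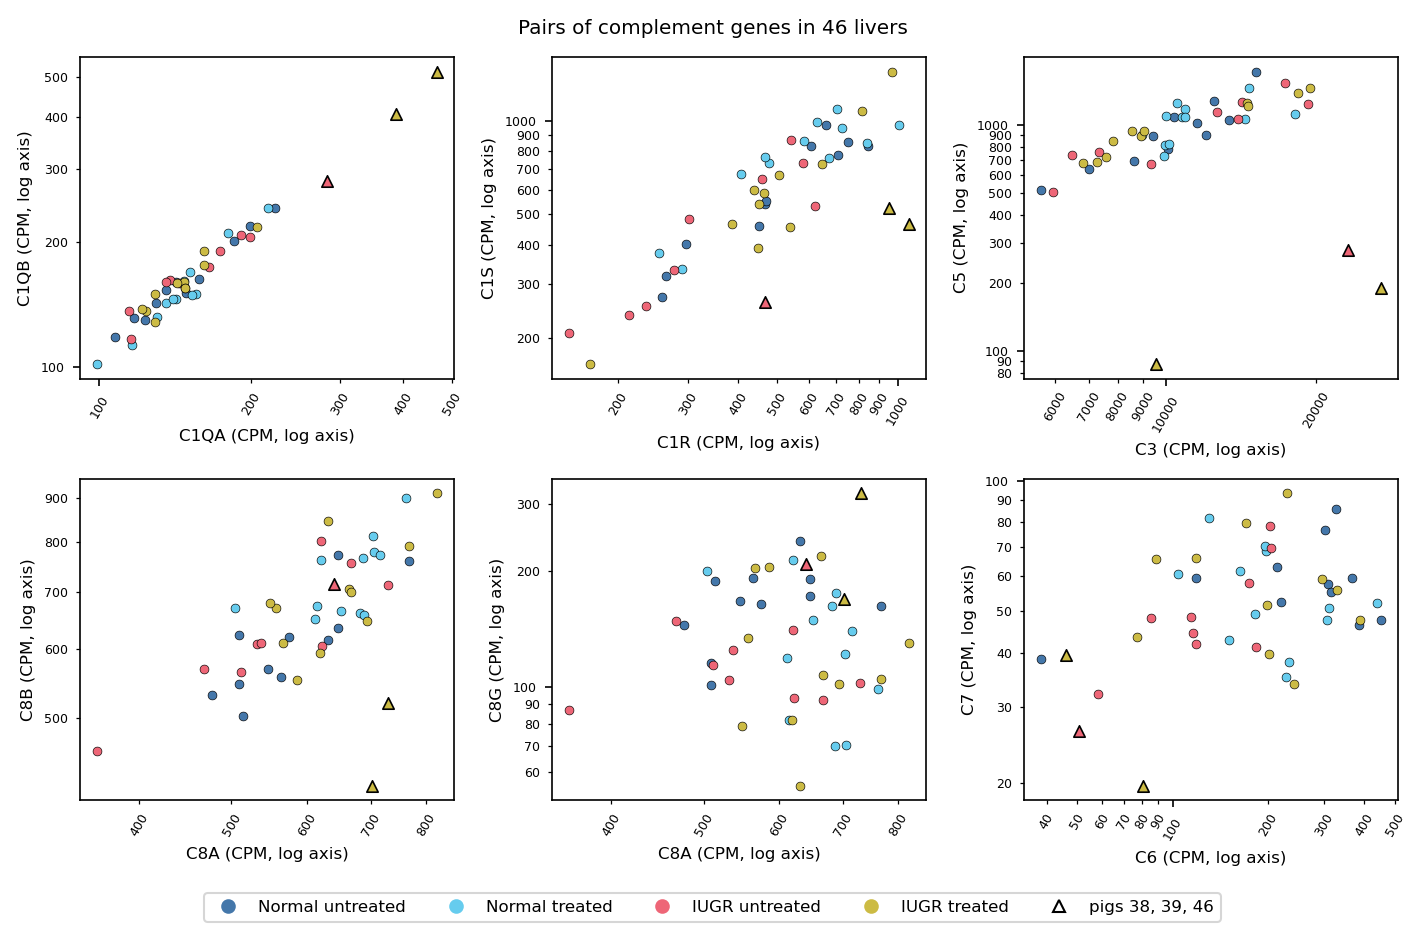
CPM of 6 pairs of complement genes, both axes logarithmic, 1 point per liver in 46 livers, coloured by labelled group, with pigs 38, 39 and 46 as triangles. C1QA with C1QB (r = 0.962 over 43 livers), C1R with C1S (0.929), C3 with C5 (0.869) and C8A with C8B (0.807) run along lines, whereas C8A with C8G (-0.062) and C6 with C7 (0.202) do not.

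CFI encodes factor I, the protease that inactivates C3b and C4b. It was among the steadiest genes in the 43 livers, with an SD of log2 CPM of 0.25 and a range of 918 to 1961 CPM, but stood at 164, 92.5 and 81.3 CPM in pigs 38, 39 and 46. By labelled group the lowest, median and highest were 1013, 1266 and 1961 CPM in untreated and 1027, 1223 and 1675 CPM in treated normal-sized piglets, 164, 1120 and 1525 CPM in untreated IUGR piglets, and 81.3, 1323 and 1562 CPM in treated IUGR piglets. Apart from these 3 livers, the groups overlapped over most of their range. Over 43 livers CFI followed C5 (r = 0.748) and SERPING1 (r = 0.706, adjusted permutation p = 0.000113 for both), and over all 46 these were 0.911 and -0.394.

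The other genes of the alternative pathway were CFD and CFP. CFD, which encodes the protease that cleaves factor B, was at 4.41 to 28.6 CPM (median 8.30), and its nearest complement gene was VTN (r = 0.652 over 43 livers and 0.778 over 46). CFP encodes properdin, which stabilises the convertase and is made by myeloid cells. It was at 13.8 to 83.9 CPM (median 27.5), and its nearest gene of all tested was C1QC (r = 0.809, and 0.877 over 46), not a gene of its own pathway.

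Other pairs that share a neighbourhood or a complex were less correlated than the C1q chains or C1R with C1S, although the difference was not tested. C2 and CFB lie 35 bases apart on chromosome 7 (C2 from 24020590 to 24034042, CFB from 24034077 to 24040523) and had r = 0.482 and rho = 0.465 over 43 livers (adjusted permutation p = 0.00254 and 0.003), with r = 0.406 over all 46. Reads at the border of C2 and CFB may be hard to assign. C6 and C7, whose proteins join the pore in sequence, lie 120939 bases apart on chromosome 16 and had r = 0.202 and rho = 0.083 (adjusted permutation p = 0.208 and 0.594). Over all 46 livers r of C6 with C7 was 0.381 and rho 0.236, with adjusted permutation p = 0.0122 and 0.132. For C6 and C7 only r passed the threshold, and only with the livers that stood apart.

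C8 is made of an alpha, a beta and a gamma chain, encoded by C8A, C8B and C8G. C8A was at 361 to 821 CPM (median 626), C8B at 417 to 910 CPM (median 660) and C8G at 55.2 to 319 CPM (median 137). C8A and C8B, 11821 bases apart on chromosome 6, had r = 0.807 and rho = 0.752 over 43 livers (adjusted permutation p = 2e-05 and 2.29e-05), with r = 0.615 over all 46, and each was the nearest gene to the other over 43. C8G, which encodes a lipocalin, was not correlated past the threshold with C8A (r = -0.062, rho = -0.116, adjusted permutation p = 0.694 and 0.491) or C8B (r = -0.227, rho = -0.225, adjusted permutation p = 0.161 and 0.168). Over all 46 livers these r were 0.025 and -0.286. Its SD of log2 CPM was 0.51 over the 43 livers, against 0.23 for C8A and 0.22 for C8B.

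C4BPA and C4BPB encode the alpha and beta chains of the C4b-binding protein, an inhibitor of the classical pathway. C4BPB lies 374 bases from the main C4BPA gene on chromosome 9 (C4BPA from 67726159 to 67774369). The other row named C4BPA lies 41175 bases further on (67815544 to 67827509) and carries the synonym APOR. They carry the same symbol, sequences were not compared here, and how reads were assigned between them is not known. Between the rows r was 0.015 over 43 livers and 0.620 over all 46. The main C4BPA gene was at 14.1 to 303 CPM (median 141), the APOR row at 3.21 to 38.7 CPM (median 16.7) and C4BPB at 77.9 to 206 CPM (median 126). C4BPA and C4BPB had r = 0.300 and rho = 0.334 over 43 livers (adjusted permutation p = 0.0614 and 0.0358), and r = 0.535 over all 46. The main C4BPA gene followed C6 (r = 0.762) and C2 (r = 0.750, adjusted permutation p = 0.000113 for both over 465 pairs) more closely than its own partner chain over the 43 livers, although the difference between these r values was not tested. Over all 46 they were 0.789 with C6 and 0.215 with C2.

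Among the receptors, ITGB2 encodes the shared beta chain of the leukocyte integrins and ITGAM the alpha chain that makes complement receptor 3 with it. ITGB2 was at 16.1 to 83.5 CPM (median 24.9) and ITGAM at 0.894 to 7.83 CPM (median 2.13), the latter from only 14 to 156 counts a library. Their r was 0.450 and rho 0.391 over 43 livers (adjusted permutation p = 0.00382 and 0.0137), and r was 0.628 over all 46. ITGB2 had a larger r with C1QC (0.824 over 43 and 0.924 over 46) and, over 43 livers, with CD163 (r = 0.812, rho = 0.835, adjusted permutation p = 2e-05 and 2.29e-05), which was 0.419 over 46. C3AR1 and C5AR1, the receptors for the fragments C3a and C5a, were at 8.51 to 52.3 CPM (median 25.7) and 4.54 to 14.6 CPM (median 8.60). They had r = 0.667 and rho = 0.672 over 43 livers (adjusted permutation p = 2e-05 and 2.29e-05) and r = 0.276 over all 46.

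The remaining genes were C7, C9, CLU, VTN, CD59, CD46 and CD55. C9, which lines the pore, was at 524 to 1616 CPM (median 1067), and C7 at 19.7 to 93.3 CPM (median 51.9). CLU and VTN encode clusterin and vitronectin, plasma proteins that keep the pore complex from inserting into membranes, and were at 1003 to 2923 CPM (median 1476) and 1601 to 6362 CPM (median 2696). CD59 blocks the pore on the cell surface and CD46 is a cofactor for factor I. CD59 was at 5.68 to 24.5 CPM (median 18.4) and CD46 at 35.2 to 87.6 CPM (median 54.9). CD55 dissolves convertases on host cells and was at 0.873 to 12.0 CPM (median 4.19).

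The 3 livers that stood apart departed from the others in opposite directions for different complement genes. For 7 of 31 genes (22.6%) all 3 were below the other 43 livers: CFI, C5, both C4BPA rows, CD55, CD59 and CD46. For 6 genes (19.4%) all 3 were above them: the C1q chains, ITGB2, CLU and SERPING1. The same held for 27.4% and 19.1% of all genes tested, so the complement genes were near the background in both directions. C8A, in contrast, was at 641, 730 and 702 CPM in pigs 38, 39 and 46, inside the 361 to 821 CPM of the others. Summed macrophage markers were at 2479, 2918 and 2967 CPM in the 3 livers against a median of 1716 CPM over all 46, and summed hepatocyte markers at 188300, 125600 and 149300 CPM against a median of 198800 CPM. The lowest hepatocyte sum of all 46, 117600 CPM, belonged to another untreated IUGR liver. Single markers were not compared in the 3 livers, and a sum can hide markers that go the other way. These sums therefore do not give the share of either cell type. The part of these cells in the levels of the complement genes was not tested.

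**Figure D3:**
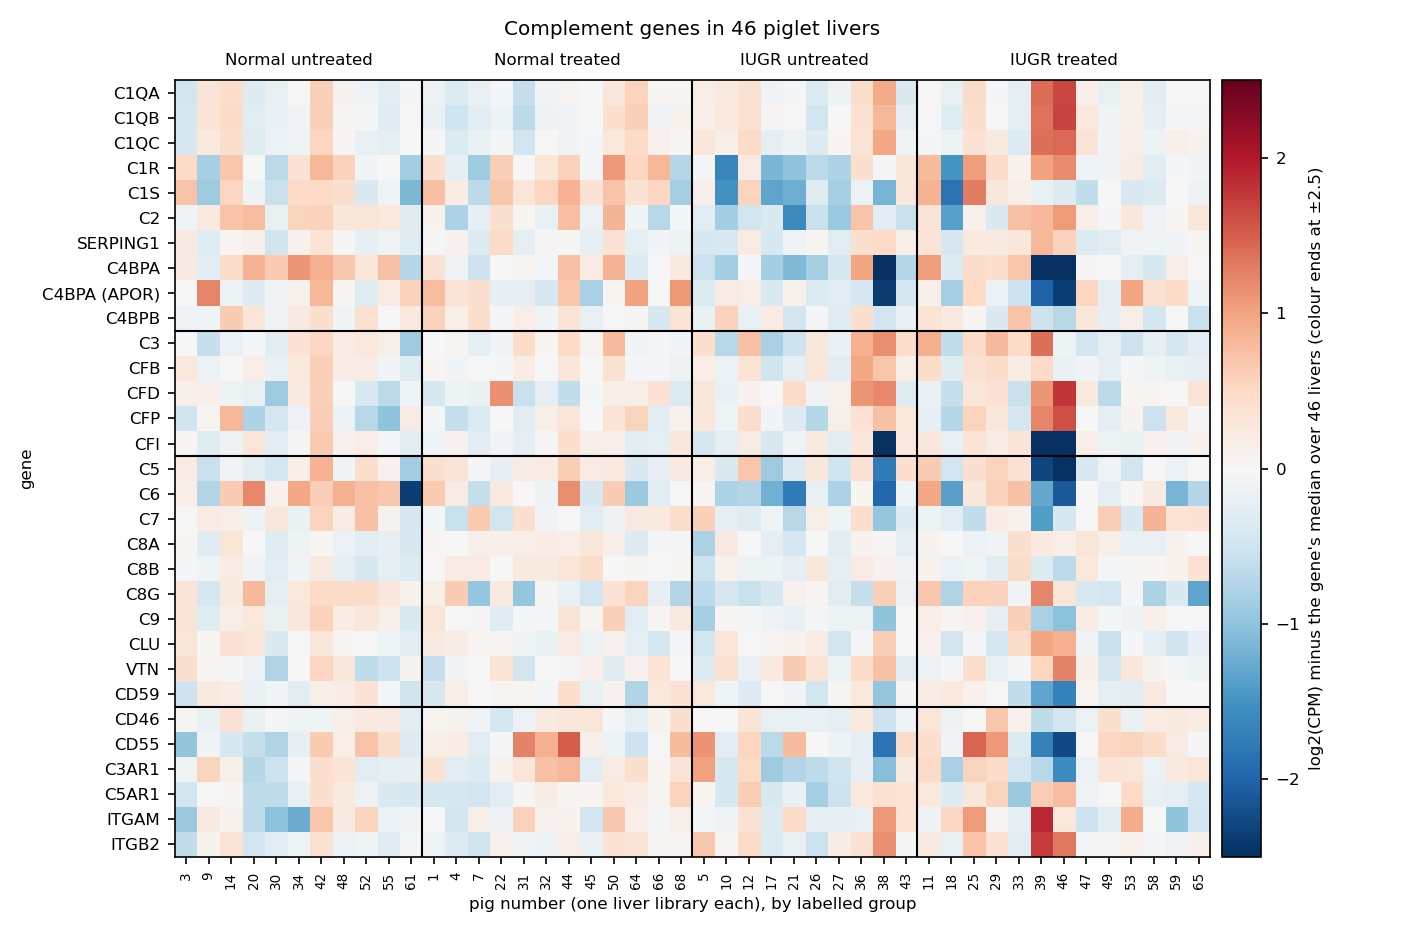
log2 CPM of each of the 31 complement genes minus its median over 46 livers, 1 column per liver by pig number and labelled group, and 1 row per gene by class (lines separate classes and groups, and the colour ends at ±2.5). Columns 38, 39 and 46 carry dark blue cells for CFI, C5 and C4BPA and red cells for the C1q chains, ITGB2 and CLU, and the C8A and C8B rows are pale throughout.

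The complement genes as a set varied about as much as other genes over the 46 livers and somewhat more over the 43, a difference that was not tested. The SD of log2 CPM had a median of 0.46 over the 46 livers, against 0.45 for all genes tested, and of 0.38 against 0.32 over the 43. The largest SDs over 46 livers were those of C4BPA (0.94), CFI (0.93), C6 (0.89), C5 (0.77) and the APOR row of C4BPA (0.754), just above CD55 (0.753), and the smallest those of C8A (0.23), C8B (0.24) and CD46 (0.27). Without the 3 livers, C6 was at 0.80, CFI at 0.25 and C5 at 0.42. The labelled groups took a median of 8.1% of the variance of a complement gene, from 0.9% for CLU to 25.1% for C2, against 8.9% over all genes tested.

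In untreated piglets, no complement gene passed an adjusted p of 0.05 for IUGR against normal-sized piglets (edgeR quasi-likelihood test, Benjamini-Hochberg over 13780 genes), where 0.0435% of all genes did. At an unadjusted p under 0.05, 5 of 31 genes (16.1%) were lower in IUGR piglets and 0 were higher, against 12.5% of all genes in either direction, 6.09% lower and 6.45% higher. DESeq2 on all 4 groups called 159 genes in all and also 0 of the 31, with 6 at an unadjusted p under 0.05, all lower. For fits other than the main edgeR fit, the share of all genes at an unadjusted p was not computed. Their counts of complement genes at that level, here and below, therefore have no background beside them. The 5 genes were C6, C2, C4BPA, C9 and C8G, which are 2 genes of the classical pathway and 3 of the terminal pathway. None of the 5 genes of the alternative pathway and none of the 6 receptors was among them. With 6.09% of all genes lower, classes this small can have 0 by chance, so these counts do not set the classes apart. C6, C2 and C4BPA also varied together over the 43 livers (r of 0.67 to 0.762), so they are not independent of each other.

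C6 was at 38.3 to 454 CPM (median 307) in untreated normal-sized and 50.6 to 203 CPM (median 117) in untreated IUGR livers. It was at 104 to 441 CPM (median 196) in treated normal-sized and 46.0 to 388 CPM (median 198) in treated IUGR livers. All groups overlapped, and the lowest liver of all was the untreated normal-sized pig 61. The log2 fold change of untreated IUGR against normal-sized piglets was -1.09 (SE 0.33, edgeR adjusted p = 0.124).

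C2, the protease that C1s cleaves to build the classical convertase, was at 166 to 351 CPM (median 249) in untreated normal-sized and 67.6 to 338 CPM (median 144) in untreated IUGR livers. In treated livers it was at 120 to 372 CPM (median 199) in normal-sized and 80.0 to 429 CPM (median 230) in IUGR piglets. The untreated groups overlapped mainly through IUGR pig 36, which held the highest value of its group. The log2 fold change was -0.73 (SE 0.22, edgeR adjusted p = 0.129). Leaving out each of 21 untreated libraries in turn, added after seeing the data, gave -0.93 to -0.63 with edgeR adjusted p of 0.0428 to 0.267. The smallest came from leaving out pig 36, the highest of its group, which by itself widens the difference.

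C4BPA was at 86.3 to 303 CPM (median 223) in untreated normal-sized and 18.9 to 280 CPM (median 82.7) in untreated IUGR livers. In treated livers it was at 97.8 to 258 CPM (median 144) in normal-sized and 14.1 to 292 CPM (median 141) in IUGR piglets. Pig 38 held the lowest and pig 36 the highest value of the untreated IUGR group. The log2 fold change was -0.99 (SE 0.33, edgeR adjusted p = 0.173), and without pigs 38, 39 and 46 it was -0.86 with an adjusted p of 0.0419.

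C9 and C8G had log2 fold changes of -0.36 (SE 0.15) and -0.46 (SE 0.23), with edgeR adjusted p of 0.283 and 0.395. C3 had a log2 fold change of 0.30 with a 95% interval from -0.15 to 0.75, CFB one of 0.11 from -0.16 to 0.38, and C5 one of -0.07 from -0.62 to 0.48, so differences within these intervals were not resolved. A list of acute phase genes, whose products the liver secretes in inflammation, had 7 of 9 log2 fold changes below 0 in the same comparison (median -0.35), with 0 past the adjusted threshold and 3 lower at an unadjusted p under 0.05. Summed, the list was at 41560 to 87670 CPM (median 66940) in untreated normal-sized and 41410 to 90300 CPM (median 60030) in untreated IUGR livers. Of 8 erythroid markers, 7 had a log2 fold change above 0 in untreated IUGR piglets (median 0.92), with 4 higher at an unadjusted p under 0.05 and 0 past the adjusted threshold. Summed, they were at 247 to 2276 CPM (median 682) in untreated normal-sized and 702 to 2690 CPM (median 1020) in untreated IUGR livers. The part of either list in the levels of C6, C2 and C4BPA was not tested.

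**Figure D4:**
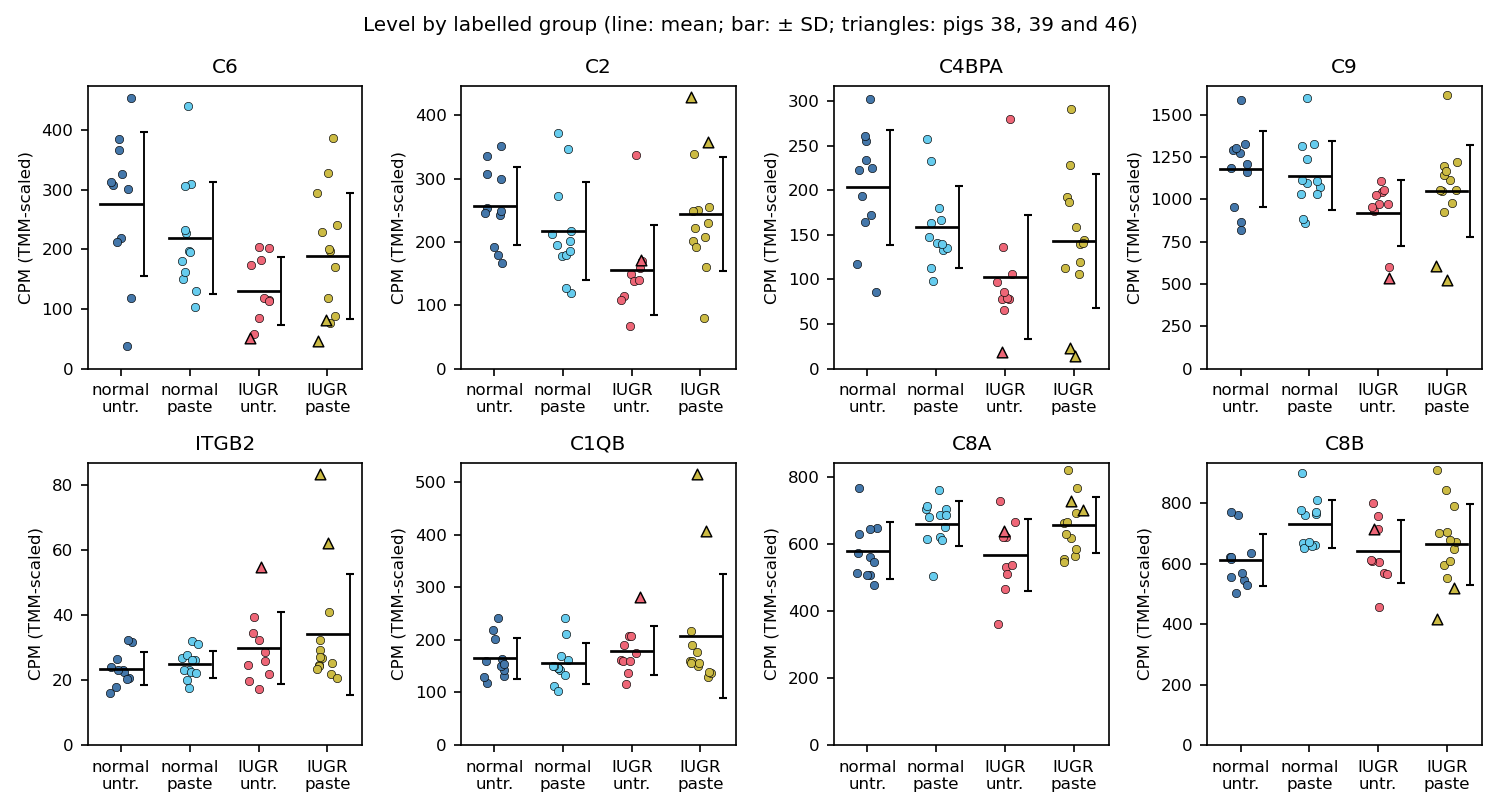
CPM of 8 complement genes by labelled group (11 and 12 livers of normal-sized piglets without and with the paste, 10 and 13 of IUGR piglets), 1 point per liver, with the mean as a line, ± SD as a bar beside it, and pigs 38, 39 and 46 as triangles. The untreated IUGR median lies below the untreated normal-sized one for C6 (117 against 307), C2 (144 against 249) and C4BPA (82.7 against 223), with overlap in each, and the highest ITGB2 and C1QB values belong to the triangles.

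In treated piglets, 0 of 31 genes passed the adjusted threshold between IUGR and normal-sized piglets, where 0.00726% of all genes did. At an unadjusted p under 0.05, 4 genes (12.9%) were higher and 0 lower, against 16.7% of all genes in either direction, 13.7% higher and 3.0% lower. DESeq2 called 10 genes in all and 0 of the 31, with 3 higher at an unadjusted p under 0.05. The 4 genes were ITGB2 and the 3 C1q chains.

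ITGB2 was at 17.6 to 31.9 CPM (median 24.6) in treated normal-sized and 20.5 to 83.5 CPM (median 26.9) in treated IUGR livers, and at 16.1 to 32.4 CPM (median 22.9) and 17.1 to 54.9 CPM (median 27.1) in the untreated ones. The top of both IUGR ranges came from pigs 38, 39 and 46. The log2 fold change in treated piglets was 0.45 (SE 0.18, edgeR adjusted p = 0.245) and, without these 3 pigs, 0.11 with an adjusted p of 0.952.

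C1QB was at 102 to 242 CPM (median 148) in treated normal-sized and 129 to 516 CPM (median 160) in treated IUGR livers, and at 118 to 242 CPM (median 153) and 117 to 282 CPM (median 168) in the untreated ones. C1QC was at 138 to 270 CPM (median 188) in treated normal-sized and 151 to 513 CPM (median 208) in treated IUGR livers, and at 144 to 277 CPM (median 177) and 154 to 373 CPM (median 205) in the untreated ones. Again pigs 39 and 46 held the highest treated IUGR values. The log2 fold changes were 0.41 (SE 0.18, edgeR adjusted p = 0.262) for C1QB and 0.36 (SE 0.16, adjusted p = 0.267) for C1QC, and 0.04 and 0.06 without pigs 38, 39 and 46. Without those 3 pigs, no complement gene had an unadjusted p under 0.05 in this comparison. Of 10 macrophage markers, 6 had a log2 fold change above 0 (median 0.08), with 2 higher at an unadjusted p under 0.05 and 0 past the adjusted threshold. Their summed level was 1239 to 2188 CPM (median 1716) in treated normal-sized and 1513 to 2967 CPM (median 1675) in treated IUGR livers, with pigs 39 and 46 at 2918 and 2967 CPM, so the IUGR median was not the higher one. Of 4 tested markers of T and NK cells, 4 had a log2 fold change above 0 (median 0.53), 2 of them at an unadjusted p under 0.05 and 0 past the adjusted threshold. They were near the floor, with medians of 0.712 CPM for CD2, 0.586 for CD3E, 0.521 for GZMA and 3.54 for NKG7. Summed, the whole list was at 15.4 and 11.2 CPM in pigs 39 and 46, against a median of 6.91 CPM over all livers. These markers were not tested again without those pigs. The part of these cells was not tested.

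Averaged over both treatments, 0 of 31 genes and 0.0% of all genes passed the adjusted threshold for IUGR. At an unadjusted p under 0.05, 9 genes (29.0%) were past it, 4 higher and 5 lower, against 22.8% of all genes, 15.8% higher and 6.94% lower. DESeq2 called 247 genes in all and 0 of the 31, with 9 at that level, 3 higher and 6 lower. With voom, which called 53 genes in all and 0 of the 31, there were 0 higher and 9 lower. In edgeR without pigs 38, 39 and 46 there were 0 higher and 4 lower. At this level, higher complement genes were counted in edgeR and DESeq2 with these livers, but not in edgeR without them or in voom. The share of all genes was computed only for the main edgeR fit, so these counts do not set the complement genes apart. In that fit 12.9% of the complement genes were higher, against 15.8% of all genes. The 3 smallest p belonged to C6 (log2 fold change -0.65, SE 0.22, edgeR adjusted p = 0.108), ITGB2 (0.40, SE 0.14, 0.109) and C4BPA (-0.57, SE 0.22, 0.137). Without pigs 38, 39 and 46, C6 was at -0.52 and ITGB2 at 0.16.

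With the energy paste, C8A and C8B had the smallest p in normal-sized piglets, and no complement gene passed the adjusted threshold. There 0 of 31 genes and 0.0% of all genes did, and 1 gene (3.2%) had an unadjusted p under 0.05, with a higher level, against 8.53% of all genes, 3.08% higher and 5.45% lower. DESeq2 called 31 genes in all and 0 of the complement genes, with 2 at that level. The 1 gene in edgeR was C8B, at 503 to 771 CPM (median 615) in untreated and 652 to 900 CPM (median 718) in treated normal-sized livers. In IUGR livers it was at 458 to 802 CPM (median 610) untreated and 417 to 910 CPM (median 671) treated. The log2 fold change in normal-sized piglets was 0.26 (SE 0.10, edgeR adjusted p = 0.445), and limma voom with sample quality weights, which called 783 genes, gave 0.27 with an adjusted p of 0.0405.

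C8A was at 477 to 768 CPM (median 563) in untreated and 504 to 762 CPM (median 684) in treated normal-sized livers, and at 361 to 730 CPM (median 579) and 548 to 821 CPM (median 664) in untreated and treated IUGR livers. The treated median was the higher one at both sizes, with groups that overlapped. Its log2 fold change with the paste was 0.19 (SE 0.10, edgeR adjusted p = 0.593) in normal-sized and 0.21 (SE 0.10, adjusted p = 1.0) in IUGR piglets. CD55 was at 2.11 to 6.89 CPM (median 3.64) in untreated and 2.95 to 12.0 CPM (median 4.60) in treated normal-sized livers, and at 1.17 to 9.11 CPM (median 4.03) and 0.873 to 11.5 CPM (median 4.81) in untreated and treated IUGR livers. These levels rest on only 16 to 187 counts a library, and the log2 fold change in normal-sized piglets was 0.49 (SE 0.30, adjusted p = 0.694).

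In IUGR piglets, 0 of 31 genes passed the adjusted threshold between treated and untreated livers, where 0.029% of all genes did. At an unadjusted p under 0.05, 3 genes (9.7%) were higher with the paste and 0 lower, against 4.54% of all genes, 2.9% higher and 1.65% lower. DESeq2 called 23 genes in all and 0 of the 31, with 3 at that level. These were C2 (log2 fold change 0.65, SE 0.21, edgeR adjusted p = 0.497), C1R (0.65, SE 0.26, adjusted p = 0.802) and C8A. C1R was at 151 to 621 CPM (median 379) in untreated and 171 to 1070 CPM (median 506) in treated IUGR livers, and at 257 to 842 CPM (median 469) and 254 to 1007 CPM (median 606) in the normal-sized ones. The groups overlapped over most of the range of C1R. In the same comparison the 4 tested markers of T and NK cells had log2 fold changes above 0 (median 0.91, 3 higher at an unadjusted p under 0.05), and erythroid markers had a median of -0.59, with 2 of 8 lower at that level and 0 of either list past the adjusted threshold. The T and NK cell markers were near the floor, and pig 39, treated, had the highest summed level of that list (15.4 CPM). The part of either list in these levels was not tested.

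Averaged over both sizes, 0 of 31 genes passed the adjusted threshold for the paste, where 0.0435% of all genes did, and 4 genes (12.9%) had an unadjusted p under 0.05, all higher, against 6.01% of all genes, 3.39% higher and 2.62% lower. DESeq2 called 17 genes in all and 0 of the 31, with 4 at that level. The smallest p was that of C8A (log2 fold change 0.20, SE 0.07, edgeR adjusted p = 0.538), followed by C1R (0.41, SE 0.18, adjusted p = 0.757) and C8B (0.16, SE 0.07, adjusted p = 0.791). Limma voom, which called 822 genes here, gave C8A an adjusted p of 0.0382 and C8B one of 0.0321.

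The difference between the IUGR contrasts with and without the paste was tested as an interaction. Of 31 complement genes 0 passed the adjusted threshold, as did 0.0% of all genes, and 1 (3.2%) had an unadjusted p under 0.05 with a difference above 0, against 6.66% of all genes, 4.44% above and 2.22% below 0. DESeq2 called 8 genes in all and 0 of the 31, with 2 at that level. The 1 gene in edgeR was C2, with a difference of log2 fold changes of 0.89 (SE 0.30, edgeR adjusted p = 0.442), followed by C6 (0.87, SE 0.44, adjusted p = 0.757) and C8G (0.60, SE 0.31, adjusted p = 0.765). C8G was at 101.2 to 240 CPM (median 167) in untreated and 70.1 to 214 CPM (median 131) in treated normal-sized livers, and at 86.9 to 208 CPM (median 109) and 55.2 to 319 CPM (median 130) in untreated and treated IUGR livers. The lower untreated IUGR levels of C2 and C6 are thus not shown to differ from the treated comparison. These contrasts share the same 4 groups and are not independent of each other.

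**Figure D5:**
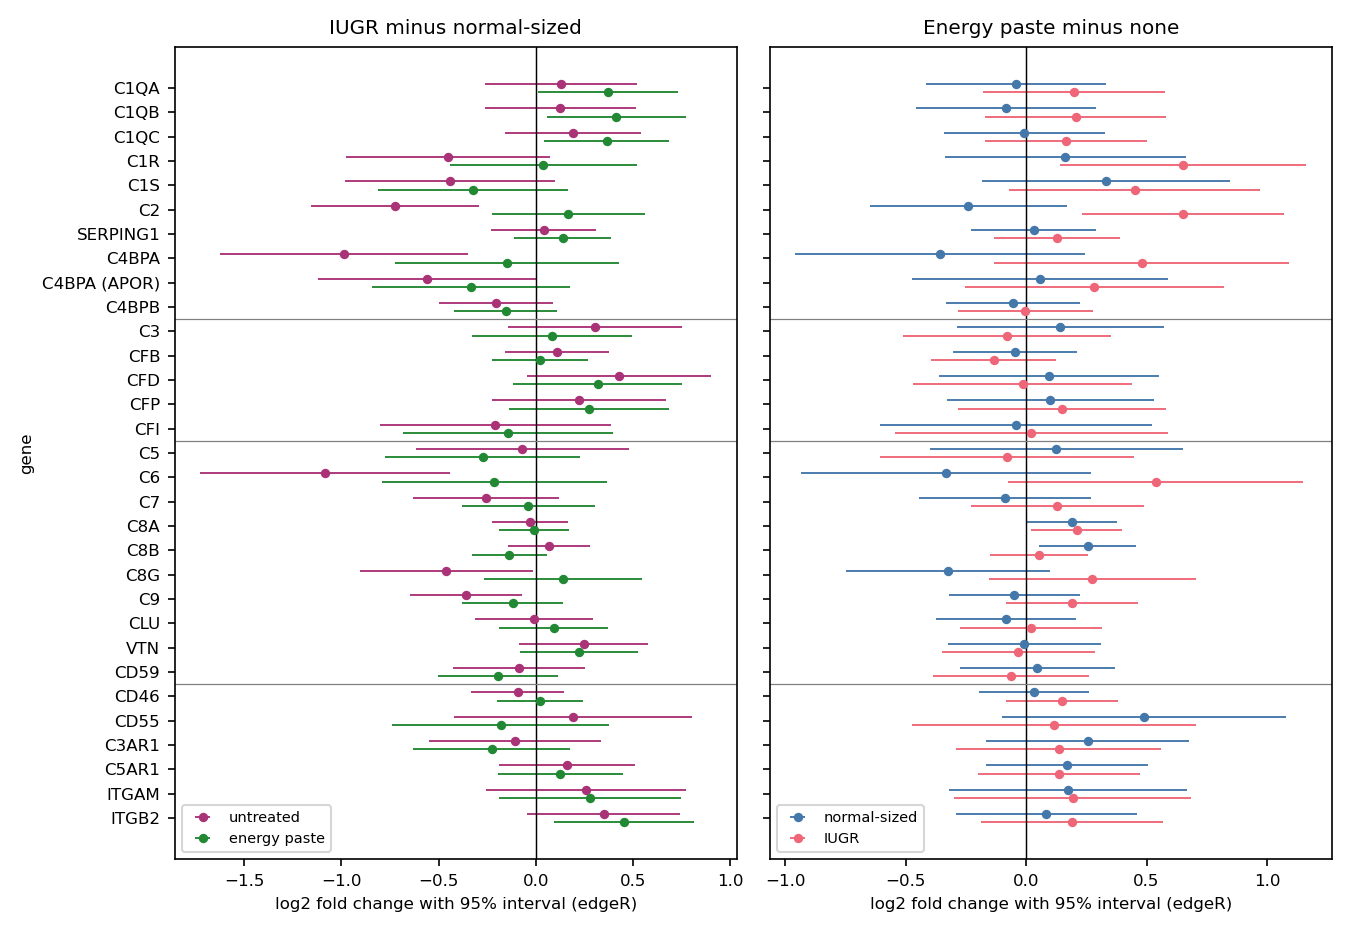
log2 fold changes with 95% intervals (edgeR) of the 31 complement genes, IUGR minus normal-sized on the left and energy paste minus none on the right, with lines between the classes. Most intervals include 0, C6 (-1.09), C4BPA (-0.99) and C2 (-0.73) lie lowest for untreated IUGR piglets, and none passed the adjusted threshold.

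C5, the APOR row of C4BPA and CD46 complete the genes with the largest and smallest spread. C5 was at 516 to 1723 CPM (median 903) in untreated and 731 to 1453 CPM (median 1083) in treated normal-sized livers, and at 281 to 1529 CPM (median 908) and 87.7 to 1461 CPM (median 891) in untreated and treated IUGR livers. The APOR row was at 13.4 to 38.7 CPM (median 17.3) in untreated and 9.51 to 35.1 CPM (median 18.9) in treated normal-sized livers, and at 3.21 to 19.3 CPM (median 13.1) and 3.27 to 33.0 CPM (median 15.4) in untreated and treated IUGR livers. Its 3 lowest values were those of pigs 38, 46 and 39. CD46 was at 45.5 to 70.7 CPM (median 53.8) and 40.7 to 72.4 CPM (median 58.0) in untreated and treated normal-sized livers, and at 38.3 to 68.6 CPM (median 49.9) and 35.2 to 87.6 CPM (median 59.4) in untreated and treated IUGR livers. For none of the 3 were the groups apart.

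Of 22 other genes of the complement pathways, 19 had a row in the table and all 19 were tested. None of the 19 passed the adjusted threshold of the edgeR test in any of the 7 comparisons. In untreated piglets 1 was lower in IUGR livers at an unadjusted p under 0.05, which was MBL2, a mannose-binding lectin (log2 fold change -1.48), where 6.09% of all genes were lower. MBL2 was at 0.253 to 32.3 CPM, from as few as 4 counts, and its log2 fold change in treated piglets was -1.2. The median log2 fold change of the 19 genes in untreated piglets was -0.07, against -0.03 for the 31 complement genes and 0.01 for all genes tested. In treated piglets 4 were higher and 1 lower at that level, where 13.7% of all genes were higher and 3.0% lower, with a median of 0.08, against 0.02 for the 31 genes. C4A, at 464 to 2090 CPM (median 1010), had log2 fold changes of -0.14 and 0.24 in untreated and treated piglets.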

How the data were processed

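Liver RNA of 46 piglets was sequenced by the authors (paired-end reads of 100 bp, BGISEQ-500) and mapped to Sscrofa11.1 with Bowtie2. The deposited values are estimated counts per gene, without scaling for depth or length, of which 85.9% are whole. The sources used here name no program for the counting, and the submitters' processing notes name DESeq2. Counts were rounded, scaled by TMM and tested in edgeR 4.0.16 (R 4.3.3) with filterByExpr over 4 groups (minimum count 10), robust quasi-likelihood F tests and 1 mean per group. The code was tested on simulated data. Alternatives were DESeq2 size factors, DESeq2 1.42.0, limma 3.58.1 voom, no filter, only the groups compared, and no pigs 38, 39 and 46. Correlations used log2 CPM (prior count 2) and 100000 two-sided permutations. The members and lists were chosen with earlier results of these data known. Every member is named, with full statistics for the 3 smallest p of each comparison. All 465 pairs, the nearest genes, the background pairs and leaving out each of 21 untreated libraries were added after seeing the data. Positions are those of RefSeq, to which all 18440 gene identifiers matched. Sequences and levels per gene length were not analysed here. Each piglet gave 1 library, so the group tests set differences against the spread between piglets. The permutation tests asked for association across livers. Both kinds of test treat piglets as independent, although some are littermates. The library totals were described and not tested.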

Additional observations from a re-analysis of the deposited data

Results flagged for a closer look

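In the untreated IUGR group, the only group of 10 or fewer livers, each of the 31 complement genes was checked for a liver far from the others. The level of 2 genes in pig 38 was flagged. CFI was at 164.3 CPM against 918 to 1525 CPM in the other livers of the group, a gap of 0.772 of the whole range. The APOR row of C4BPA was at 3.206 CPM against 12.3 to 19.3 CPM, a gap of 0.745 of the range. The critical value for 10 livers is 0.466, and chance gives such a flag in about 5% of genes checked. Pig 38 is 1 of the 3 livers that stood apart over all genes, and pigs 39 and 46 were also below the other 43 livers for both genes. The cause was not tested.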

How the results depend on the processing

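Depth does not limit most of these genes, but ITGAM and CD55 rest on few counts, and the labels, littermates and the 3 livers that stood apart limit every comparison. The number of complement genes called, 0 in each of the 7 comparisons, was also 0 in 55 of 60 repeats. In untreated piglets limma voom called 2 (C2 and C4BPA, with 167 of all genes called against 6), leaving out pigs 38, 39 and 46 called 1 (C4BPA, with 199 of all genes called), and leaving out each of 21 untreated libraries called 0 to 1, the 1 being C2 without IUGR pig 36. In these 21 fits the log2 fold change was -1.192 to -0.985 for C6, -0.927 to -0.625 for C2 and -1.294 to -0.856 for C4BPA, with adjusted p of 0.0644 to 0.265, 0.0428 to 0.267 and 0.0621 to 0.331. For the paste, voom called 1 in normal-sized piglets (C8B) and 2 averaged over sizes (C8A and C8B). None of the 21 log2 fold changes repeated under the alternatives, those of the 3 smallest p in each comparison, changed sign, and the other genes were repeated only in the counts. By unadjusted p under 0.05, voom placed 0 complement genes above and 1 below in treated IUGR piglets, against 4 and 0 in edgeR. Without pigs 38, 39 and 46, r was 0.202 for C6 and C7, 0.300 for C4BPA and C4BPB, 0.667 for C3AR1 and C5AR1, 0.350 for C9 and HP, an acute phase gene, and -0.062 for C8A and C8G, against 0.381, 0.535, 0.276, 0.045 and 0.025 over 46 livers. Without the 2 livers farthest from the median, r was 0.563 for C3AR1 and C5AR1, 0.563 for C1QB and CD163, 0.646 for ITGB2 and CD163, 0.234 for C9 and HP and -0.062 for C8A and C8G. With the labelled group means removed, r of C9 and HP was -0.026. The cause of these changes was not tested. Littermates were spread over the groups, but no paired analysis was possible because litter is not in the labels. Every pig number occurs in 1 group only. With other scalings the median over all genes tested shifted by at most 0.015 on the log2 scale.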

Other observations

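Genes outside the complement pathways were nearest to several complement genes over the 43 livers, among 13779 genes each. CFI and SERPING1 both had PLG, the gene of plasminogen, as nearest gene (r = 0.813 and 0.823), and C6 had CP, the gene of ceruloplasmin (r = 0.788). C4BPA had a row of CRP, the gene of C-reactive protein (r = 0.856). The log2 fold change of that row between untreated IUGR and normal-sized piglets was -1.43, with C4BPA itself at -0.99. The other row of CRP, with a median of 144 CPM against 40.6 CPM, was at -0.37 in the same comparison. CD46 had STAT3, a transcription factor of cytokine signalling (r = 0.835), and C3AR1 had TFEC (r = 0.843) and CD86 (r = 0.842), a costimulatory receptor of antigen-presenting cells. C7 was the least like any other complement gene, with CD46 as its nearest (r = 0.330), ranked 585 of all genes, and HGF, a growth factor of non-parenchymal liver cells, as its nearest gene of all. These are descriptions of 43 livers, chosen after the values were seen, and no test was run on them.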
